A study of Mus musculus with 23 samples.

Results

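The genes described here are 8 genes known for neutrophil granules, S100a8, S100a9, Ngp, Camp, Lcn2, Retnlg, Mmp8 and Ltf, measured by RNA sequencing in sorted brain microglia. They were taken by gene symbol, and all 8 were found among the 53090 genes of the deposited tables. Microglia were compared in 4 groups of female C57BL/6 mice: young (Y, 7 libraries), young repopulated (Y-re, 3), old (O, 5) and old repopulated (O-re, 8). Mice were depleted of microglia with PLX5622, an inhibitor of the receptor CSF1R that microglia need to survive, given in AIN-76A chow at 1200 ppm, and control mice ate the same chow without drug. In a repopulated group the brain had been refilled by new microglia. Ages, the length of the drug diet and the time left for refilling are not stated in the labels. The protocols describe magnetic selection on CD11b, an integrin subunit that neutrophils and monocytes also carry, together with culture. The protocols also describe RNA from cells sorted by flow cytometry, for which the markers of the sort are not given. Nothing says that the libraries of a group came from separate animals, so p-values measure the spread between libraries. In such bulk libraries, fewer cells of a type and less RNA per cell cannot be told apart.

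Neutrophils are short-lived white blood cells that are made in bone marrow and carry antimicrobial proteins in granules filled at successive steps of their maturation. The secondary or specific granules hold lactoferrin (Ltf), which binds iron, lipocalin 2 (Lcn2), which binds the siderophores bacteria use to take up iron, the cathelicidin precursor (Camp), the cystatin-related neutrophilic granule protein (Ngp) and the collagenase Mmp8. S100a8 and S100a9 form calprotectin, a calcium- and metal-binding dimer that fills the neutrophil cytosol and is also made by monocytes, and Retnlg encodes a resistin-like secreted protein of mouse granulocytes. The transcription of granule genes is known to depend on C/EBP factors, above all C/EBP-epsilon for the secondary granules, and on the ETS factor PU.1.

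The members lie on 4 chromosomes. In GRCm38, S100a8 (chromosome 3, 90668978 to 90670035) and S100a9 (chromosome 3, 90692632 to 90695721) were separated by 22.6 kb. Camp (109847379 to 109849617), Ngp (110419747 to 110423012) and Ltf (111019271 to 111042767) lay near each other on chromosome 9, 570.1 kb and 596.3 kb apart, while Mmp8 (7558456 to 7568485) was 102278.9 kb from Camp on the same chromosome. Lcn2 lies on chromosome 2 (32384633 to 32388252), and Retnlg on chromosome 16. The 7 genes given with coordinates are annotated as protein-coding in GENCODE M21.

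Since the members fell into groups that varied together, the sequence before the start is shown for S100a9, from the calprotectin group, for Ngp and Ltf, from the secondary granule group, and for Mmp8, which followed neither closely. Sequences and starts are from RefSeq on GRCm38.p6, 5′ to 3′ in the direction of the gene, and reach up to 250 bases upstream. For Ngp and Ltf the 61 and 21 bases nearest the RefSeq start were left out, because the GENCODE M21 gene already begins there. Capitals mark exact matches, on either strand, of TTNNGCAA, a C/EBP-like motif, or of GAGGAA, an ETS-like motif. No match of one motif overlapped a match of the other in these genes.
S100a9 chr3:90695722-90695971, reverse strand: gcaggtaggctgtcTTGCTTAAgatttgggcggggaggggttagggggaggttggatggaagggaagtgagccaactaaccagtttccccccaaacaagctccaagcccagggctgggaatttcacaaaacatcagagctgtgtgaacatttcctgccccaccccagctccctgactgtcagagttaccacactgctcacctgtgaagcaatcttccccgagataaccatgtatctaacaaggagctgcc
Ngp chr9:110419558-110419746, forward strand: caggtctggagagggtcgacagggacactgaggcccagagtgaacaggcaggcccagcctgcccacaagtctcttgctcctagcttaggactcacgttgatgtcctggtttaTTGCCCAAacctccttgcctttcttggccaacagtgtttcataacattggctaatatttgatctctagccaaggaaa
Ltf chr9:111019042-111019270, forward strand: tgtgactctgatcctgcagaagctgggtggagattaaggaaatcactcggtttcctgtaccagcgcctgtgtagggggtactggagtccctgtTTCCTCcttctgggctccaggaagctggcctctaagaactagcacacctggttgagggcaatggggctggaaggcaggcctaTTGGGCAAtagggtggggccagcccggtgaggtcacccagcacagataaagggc
Mmp8 chr9:7558179-7558428, forward strand: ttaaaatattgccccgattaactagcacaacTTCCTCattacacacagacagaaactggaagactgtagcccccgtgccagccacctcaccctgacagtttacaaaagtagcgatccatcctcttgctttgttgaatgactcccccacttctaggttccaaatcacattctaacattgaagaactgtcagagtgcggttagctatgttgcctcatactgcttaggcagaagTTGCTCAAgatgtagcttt

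Within the 250 bases before the RefSeq start, TTNNGCAA was present in 6 of the 8 members and in 9.6% of 32851 promoter windows of the same length. The matches began 236 bases before the start in S100a9, 138 and 11 in Ngp, 75 in Ltf, 19 in Mmp8, 216 in Lcn2 and 246 in Retnlg. Positions count from the RefSeq start, also where the GENCODE M21 gene begins earlier. The Ngp match at 11 lies in the 61 bases not shown. GAGGAA was present in 4 of the 8 members, S100a8, Lcn2, Mmp8 and Ltf, and in 23.3% of windows. In Lcn2 its match, at 20 bases, lies where the GENCODE M21 gene has already begun. In S100a8 the match at 36 bases lies in such a stretch too, while that at 170 does not. Genes of each pattern of variation described below held a C/EBP-like match, Mmp8 included, and S100a8 and Camp held none. A match is a description of the letters and was not tested as a binding site.

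The libraries held between 43.66 M and 58.19 M counts. Levels are given as CPM, counts scaled to the library total and by the TMM factors of edgeR, and 3 counts in a library, the limit that a count of 0 allows, came to 0.0544 to 0.0689 CPM. The microglial marker list was high throughout, with 10 genes summing to 26110 to 31970 CPM in young, 23070 to 26800 in young repopulated, 10370 to 26580 in old and 9814 to 30010 in old repopulated libraries. Young replicate 3 had the fewest genes with a count, 16437, where the others had 17637 to 22317. Without it the members called, out of 8, were 5 in place of 4 in old libraries against young ones. They were 5 as before in old repopulated and 0 in place of 1 in young repopulated libraries. The share of all genes called without it is not given here. A running number from 1 to 24 ends each title, and the young repopulated libraries are numbers 22 to 24. Numbers 1 to 11 hold 3 young, 2 old and 5 old repopulated libraries. The labels do not say what the numbers stand for, and the 2 runs of numbers are treated as a possible batch.

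All 8 granule genes were measured in every group, at low levels beside the microglial genes. On the scale per length, the deposited TPM, which is scaled for gene length and library, calprotectin was the most abundant. In young libraries S100a9 had 52.1 ± 36.9 TPM and S100a8 38.2 ± 25.3 (SD, n = 7). The other 6 lay between 1.78 ± 1.25 for Camp and 7.19 ± 4.91 for Ngp, with Mmp8 at 1.86 ± 1.09 (SD, n = 7), so that neighbours in this order lay within their spread. In old libraries the order was S100a9 (197 ± 73.6 TPM), S100a8 (143 ± 47.1), Ngp (24.9 ± 19.2), Retnlg (24.8 ± 11.3), Ltf (17.8 ± 15.7), Mmp8 (16.2 ± 8.47), Lcn2 (15.4 ± 7.54) and Camp (6.25 ± 4.40; SD, n = 5). From Ngp down to Lcn2 the neighbours did not differ beyond their spread. By mean TPM, Mmp8 stood above Lcn2 in old and below it in young libraries, where Lcn2 had 3.83 ± 3.24 TPM (SD, n = 7). Both differences lay within the spread.

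**Figure D1:**
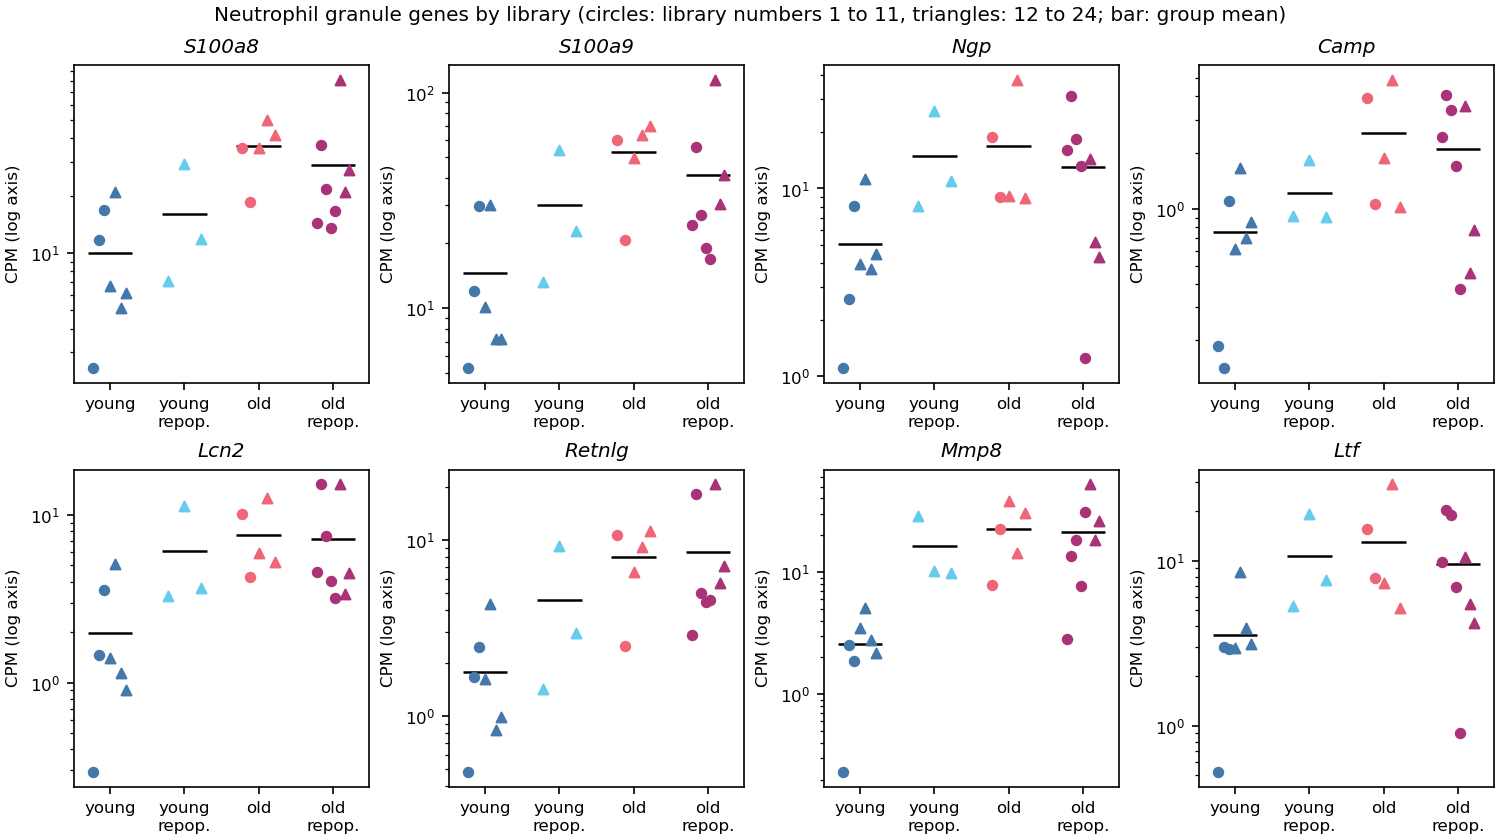
Level of each granule gene in each library, in CPM on a log axis, by group; circles are library numbers 1 to 11, triangles 12 to 24, and bars are group means. Most old libraries lie above most young ones in all 8 genes, and Mmp8 is the gene in which every old and every young repopulated library lies above the young maximum of 5.06 CPM.

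In old against young libraries, 4 of the 8 members rose and none fell: Mmp8, Retnlg, S100a8 and S100a9. The call was an adjusted p under 0.05 in edgeR's quasi-likelihood test with Benjamini-Hochberg adjustment over 18720 genes, of which 2.60% were called higher. All 8 members had positive log2 fold changes with a median of 1.87, where the median of all genes was -0.01, and all 8 had an unadjusted p under 0.05, as 15.3% of all genes did. Ngp, Camp, Lcn2 and Ltf, at 1.74 to 1.94 on the log2 scale, did not pass, with adjusted p of 0.132, 0.145, 0.0587 and 0.101.

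Mmp8, the neutrophil collagenase, showed the largest fitted difference of the 8. Its 7 young libraries had a lowest value of 0.229, a median of 2.52 and a highest of 5.06 CPM. The old libraries had 7.86, 22.4, 38.0, 14.2 and 30.4 CPM. All 5 old libraries were therefore above all 7 young ones. That separation was found for 1.43% of all genes and for 1 of the 8 members. Mmp8 rose by 3.12 ± 0.588 on the log2 scale (SE; 8.71-fold; edgeR adjusted p 0.00705).

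S100a8, the smaller calprotectin subunit, had a lowest value of 2.48, a median of 6.68 and a highest of 20.9 CPM in young libraries. In old libraries it had 35.8, 18.6, 35.8, 49.8 and 41.6 CPM. Only old replicate 2, at 18.6 CPM, lay within the young range, below young replicate 5. The rise was 1.86 ± 0.486 on the log2 scale (SE; 3.64-fold; edgeR adjusted p 0.0382). S100a9, its partner, went from 14.6 ± 10.8 (SD, n = 7) to 52.9 ± 19.4 CPM (SD, n = 5), and its rise was 1.86 ± 0.504 (SE; edgeR adjusted p 0.046), with 4 of 5 old libraries above the young maximum. Retnlg, the resistin-like gene, had 10.7, 2.49, 6.59, 9.09 and 11.3 CPM in old libraries against a young range of 0.480 to 4.34 with a median of 1.64. Again old replicate 2 was the library within the young range. Retnlg rose by 2.18 ± 0.567 on the log2 scale (SE; 4.53-fold; edgeR adjusted p 0.0378).

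Ngp, the granule protein of the cystatin family, had a lowest value of 1.10, a median of 3.98 and a highest of 11.3 CPM in young libraries. In old libraries it had 18.9, 8.97, 9.17, 38.0 and 8.90 CPM. Old replicates 1 and 4 lay above the young range and the other 3 within it. Ltf showed the same order in old libraries as far as its highest values went, with 15.5 and 29.1 CPM in replicates 1 and 4 and 5.19 to 7.82 in the other 3, against a young range of 0.521 to 8.48. Camp ranged from 0.142 to 1.67 CPM in young and from 1.03 to 4.90 in old libraries, and Lcn2 from 0.292 to 5.08 and from 4.27 to 12.6. Of the 5 old libraries, 2 exceeded the young maximum in Ngp and in Ltf, 3 in Camp and 4 in Lcn2.

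In old against young libraries, Mmp8 kept its call whichever library was left out, and the other calls did not. The share of all genes called in each refit is not given here, so gains and losses of calls are not set against it. Mmp8 was the 1 member called without young replicate 1, 2, 4, 6 or 7 or without old replicate 3, 4 or 5, and S100a9 also lost its call without young repopulated replicate 3, old replicate 1 or old repopulated replicate 3, 7 or 8. Lcn2 was called in addition without young replicate 3 or 5, and robust dispersion estimation left Mmp8 and Retnlg. S100a9 lost its call with upper-quartile factors and with library number as a term. Within library numbers 1 to 11, 0 members were called by edgeR (3 young and 2 old libraries), with log2 fold changes of 1.39 for S100a8, 1.36 for S100a9, 2.10 for Retnlg and 3.29 for Mmp8. With so few libraries, a lack of calls does not show a lack of difference. Within 12 to 24 (4 and 3 libraries) the same 4 genes were called, at 2.13, 2.17, 2.21 and 3.03.

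In old repopulated against young libraries, 5 of the 8 members rose and none fell: Mmp8, Retnlg, Lcn2, S100a8 and S100a9. Of all genes, 9.29% were called higher in this comparison, which shares its young libraries with the one above. The median log2 fold change of the 8 was 1.53 against -0.02 over all genes. All 8 had an unadjusted p under 0.05, as 30.5% of all genes did.

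Mmp8 in old repopulated libraries had a lowest value of 2.84, a median of 18.2 and a highest of 52.5 CPM. All but old repopulated replicate 1, at 2.84 CPM, lay above the young maximum. The rise was 3.04 ± 0.555 on the log2 scale (SE; 8.21-fold; edgeR adjusted p 0.00144). Retnlg had 2.90, 5.36 and 20.8 CPM as its lowest, median and highest value, with 7 of 8 libraries above the young maximum, and rose by 2.28 ± 0.531 (SE; edgeR adjusted p 0.00665). S100a8 had 13.6, 21.4 and 81.5 CPM, and 5 of 8 libraries exceeded every young one. Its rise was 1.55 ± 0.446 (SE; edgeR adjusted p 0.0223), beside 1.505 ± 0.462 for S100a9 (SE; adjusted p 0.0309) and 1.86 ± 0.514 for Lcn2, the siderophore-binding lipocalin (SE; adjusted p 0.018).

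Ngp, Ltf and Camp were not called in this comparison. Ngp had 16.01, 31.2, 18.4, 13.1 and 1.25 CPM in replicates 1 to 5 and 14.4, 5.17 and 4.31 in replicates 6 to 8. Old repopulated replicate 5 was thus near the lowest young value, while 5 of 8 libraries exceeded the young maximum of 11.3. Ltf ranged from 0.899 to 20.3 CPM and Camp from 0.375 to 4.06, both lowest in replicate 5. The 3 genes had log2 fold changes of 1.37, 1.43 and 1.47 for Ngp, Ltf and Camp and edgeR adjusted p of 0.0907, 0.0769 and 0.081.

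All 8 members were called in old repopulated against young libraries without young replicate 5, the young library with the highest granule gene sum, and 3 (Mmp8, Retnlg and Lcn2) without old repopulated replicate 6. S100a9 also lost its call without young replicate 1, 2, 4, 6 or 7 or old repopulated replicate 2, and Ngp and Ltf gained one without old repopulated replicate 5. Within library numbers 1 to 11 (3 young, 5 old repopulated) 0 members were called by edgeR, and within 12 to 24 (4 and 3) S100a8, S100a9, Retnlg and Mmp8 were. The log2 fold changes of Ngp, Camp and Ltf were 2.03, 2.32 and 2.41 within the lower numbers and 0.44, 0.73 and 0.54 within the higher ones, while those of Mmp8 were 3.25 and 3.26. S100a8 went the other way, at 1.002 in the lower and 2.16 in the higher numbers. The difference between the runs of numbers was not tested. Here too the share of all genes called in each refit is not given.

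In young repopulated against young libraries, 1 of the 8 members rose, Mmp8, and none fell. Of all genes, 0.828% were called higher. Mmp8 had 28.6, 10.1 and 9.76 CPM in the 3 young repopulated libraries. All 3 were above the young maximum of 5.06, a separation found for 5.97% of all genes and for 1 of the 8 members. The rise was 2.64 ± 0.637 on the log2 scale (SE; 6.24-fold; edgeR adjusted p 0.0394).

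The other 7 genes had log2 fold changes of 0.68 (S100a8) to 1.61 (Lcn2) in young repopulated against young libraries, and edgeR adjusted p of 0.213 to 0.727. The median of the 8 was 1.47 against -0.04 over all genes, and 5 had an unadjusted p under 0.05, as 15.1% of all genes did. Young repopulated replicate 2 was the highest of its group in these 7 genes and not in Mmp8. S100a8 had 7.11, 29.2 and 11.8 CPM, and Ngp had 8.05, 25.8 and 10.97. The Mmp8 call was lost without young replicate 2, 3, 4, 6 or 7, any young repopulated library or old replicate 5, and with robust dispersion estimation (adjusted p 0.0534). Without young repopulated replicate 1 its change was 1.94 (adjusted p 0.307), and within library numbers 12 to 24 it was 2.29 (adjusted p 0.0128).

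**Figure D2:**
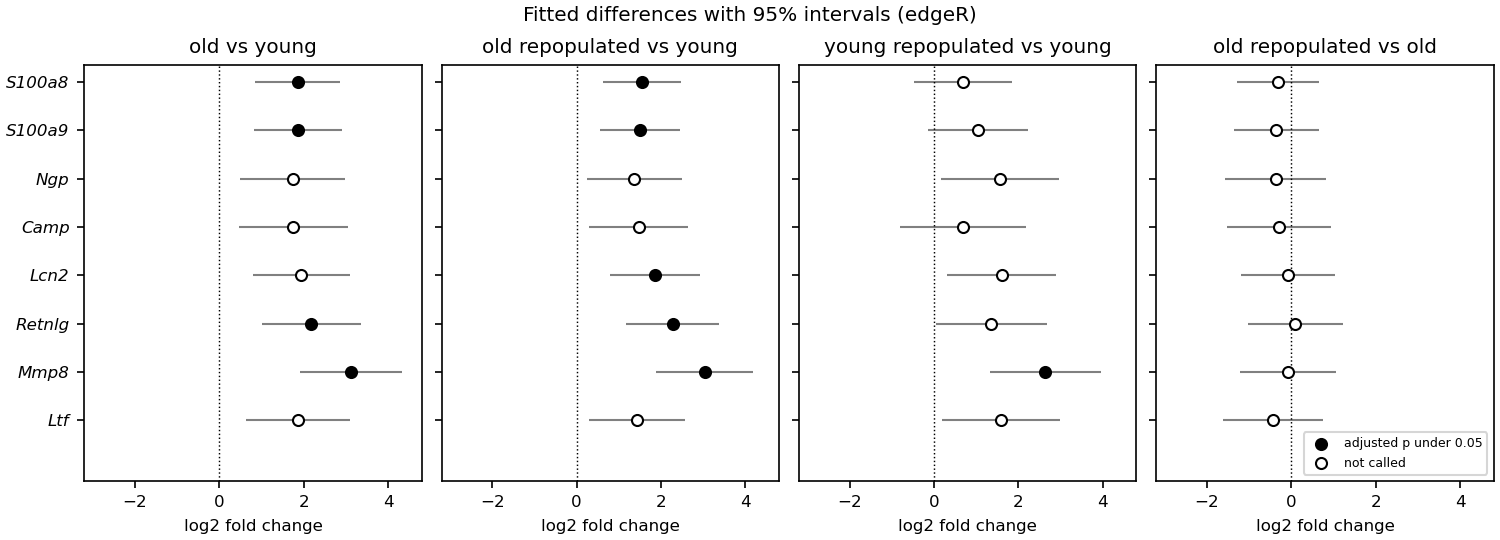
Fitted log2 fold change of each granule gene with its 95% interval, in 4 comparisons; filled points passed at an adjusted p under 0.05 over all genes and open points did not. Old and old repopulated libraries differ from young ones in the same direction in all 8 genes, while every interval of old repopulated against old libraries includes 0.

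Repopulation in old mice was followed by no called change in these genes. Old repopulated against old libraries gave 0 of 8 members by edgeR, 0 with an unadjusted p under 0.05 and 0 by DESeq2, where 0.278% of all genes were called in either direction. The log2 fold changes ran from -0.44 for Ltf to 0.10 for Retnlg, with a median of -0.30 against 0.00 over all genes. The 95% interval for Mmp8 was -1.22 to 1.05 and that for S100a8 -1.29 to 0.66, so that a change of up to about 1 on the log2 scale in either direction for Mmp8 could not be told from none. Within library numbers 12 to 24, Ngp, Ltf and Camp were at -1.24, -1.06 and -0.72 (edgeR adjusted p 0.258, 0.326 and 0.571), and S100a8, S100a9 and Mmp8 at 0.03, 0.02 and 0.23. Within 1 to 11, Ngp, Ltf and Camp were at 0.21, -0.03 and -0.05, and S100a8, S100a9 and Mmp8 at -0.39, -0.49 and -0.04. None was called in either run of numbers, and the sign for S100a8, S100a9, Ngp and Mmp8 depended on the run.

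Old repopulated against young repopulated libraries also gave 0 of 8, with 0 at an unadjusted p under 0.05 and 0 by DESeq2. Of all genes, 0% were called. The log2 fold changes lay between -0.20 for Ngp and 0.92 for Retnlg, and the interval for S100a8 was -0.36 to 2.09. The interaction, which is the change with repopulation among old libraries minus the change among young ones, was negative in all 8 members and called in 0, with 0% of all genes called. At an unadjusted p under 0.05 stood 3 of the 8, where 8.24% of all genes did, and DESeq2 called 0. The interaction was -2.73 for Mmp8 (95% interval -4.46 to -0.99, edgeR adjusted p 0.423).

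The members did not vary as a single block. Over the 23 libraries, S100a8 and S100a9 followed each other most closely, with a Pearson's r of 0.971 and a Spearman's rho of 0.973 on log2 CPM. Retnlg followed both, at r of 0.956 and 0.954. A second group was formed by Ngp, Camp and Ltf, with r of 0.959 for Ngp and Ltf, 0.912 for Ngp and Camp and 0.862 for Camp and Ltf. Lcn2 went with both groups, at r of 0.916 to 0.918 with the first and 0.827 to 0.837 with the second. Between the first and the second group r was 0.657 to 0.704.

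Mmp8 followed the second group least. Its r with Ngp was 0.378 (permutation p 0.0743, adjusted 0.0743) and its rho 0.215 (p 0.321, adjusted 0.321). Its r was 0.414 with Camp (permutation p 0.0486, adjusted 0.0504) and 0.46 with Ltf (p 0.0277, adjusted 0.0298). Without the 2 libraries farthest from the median, by Camp for the first and by Mmp8 for the second, these were 0.088 and 0.123. Each r thus rested on the 2 libraries left out of it. With S100a8, S100a9, Retnlg and Lcn2 the r of Mmp8 was 0.667 to 0.725. Over the 28 pairs, 26 passed by Pearson and 25 by Spearman at an adjusted p under 0.05 with 100000 permutations, whose smallest p is 1e-05.

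Part of this likeness lay between the groups of mice. After each group's mean had been subtracted, an alternative chosen after seeing the data, r was 0.958 for S100a8 with S100a9 and 0.942 for Ngp with Ltf. For Mmp8 it was then -0.06 with Ngp, -0.00 with Camp and 0.06 with Ltf, and 0.32 to 0.47 with the other 4. The values within library numbers 1 to 11 and 12 to 24 were 0.943 and 0.986 for S100a8 with S100a9, 0.959 and 0.971 for Ngp with Ltf, and 0.394 and 0.341 for Ngp with Mmp8. All 8 genes share the depth and the composition of the same libraries.

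**Figure D3:**
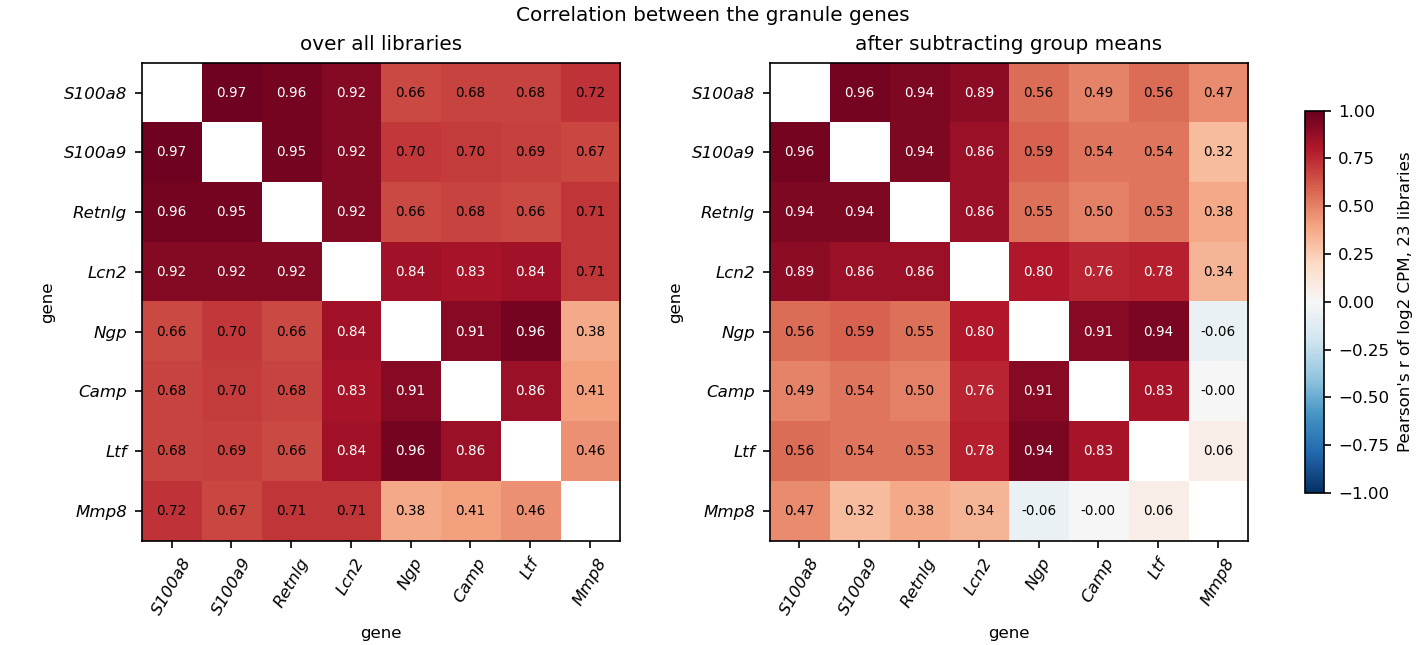
Pearson's r of log2 CPM between the granule genes over 23 libraries, as measured on the left and after subtraction of each group's mean on the right; red is positive and blue negative. Calprotectin with Retnlg and the genes Ngp, Camp and Ltf form 2 blocks in both panels, with Lcn2 between them, and the row of Mmp8 is palest against Ngp, Camp and Ltf.

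Ratios between genes in a library, taken from the same CPM values, describe this grouping by single libraries and are no separate evidence for it. S100a8 stood to S100a9 at 0.47 to 0.98, a 2.09-fold range over 23 libraries. The ratio of Ngp to S100a8 ran from 0.0753 in old repopulated replicate 5 to 1.13 in young repopulated replicate 1, which is a 15-fold range. The ratio of Mmp8 to Ngp ran from 0.177 in old repopulated replicate 1 to 24.9 in old repopulated replicate 5, a 141-fold range. Old repopulated replicate 5 thus set an end of both wide ranges. The values next to it were 0.157 for Ngp to S100a8 and 6.02 for Mmp8 to Ngp, both in old repopulated replicate 8. These are ratios of CPM without a correction for length, so they describe libraries and not relative abundance. By group, the ratio of Mmp8 to Ngp was 0.208 to 0.976 in young, 0.394 to 3.56 in young repopulated, 0.375 to 4.14 in old and 0.177 to 24.9 in old repopulated libraries, so that each group overlapped the young one.

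Whether Mmp8 rose more than the other members was tested by the log2 ratio of Mmp8 to each of the other 7 genes in each library, a test chosen after the values were seen. The mean ratio was higher than in young libraries by 0.98 to 1.49 in old, by 0.75 to 1.80 in old repopulated and by 0.98 to 2.05 in young repopulated libraries. Of these 21 two-sided exact permutation tests, 0 passed after adjustment, with adjusted p of 0.186 to 0.25 and a smallest raw p of 0.0186 (against S100a8 in old repopulated libraries). The larger fitted fold change of Mmp8 was therefore not distinguishable from that of the other members at this number of libraries.

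**Figure D4:**
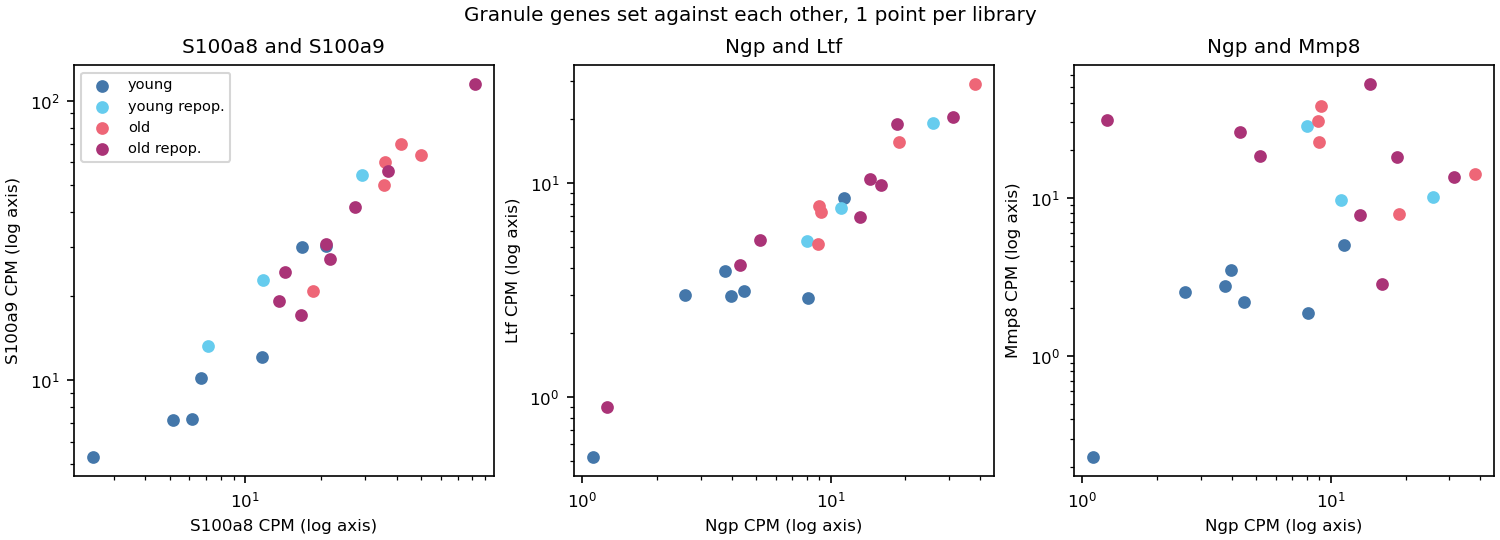
CPM of pairs of granule genes, 1 point per library on log axes, coloured by group. S100a8 with S100a9 (r of 0.971) and Ngp with Ltf (0.959) lie along a line, while Ngp with Mmp8 (0.378) scatter.

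By Spearman's rho over the 23 libraries, Lcn2 was the member most like the mean log2 CPM of the other 7, at 0.976, and Mmp8 the least, at 0.498. Each of the 7 members other than Mmp8 had another member as its closest of 18719 tested genes. For Mmp8 the closest member, Retnlg, came at rank 1895.5. The genes most like Mmp8, looked up after its values were seen, were Dnase1l1 (rho 0.944), Cyfip2, Atp8b4, Gstm1, Foxred2, Tnfsf13, Pla2g7 and Rasgrp2 (0.934).

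Among the genes most like the mean of all 8 members were Pglyrp1, a peptidoglycan-binding granule protein (rho 0.884), Ly6g, the surface antigen that defines mouse neutrophils (0.85), Wfdc21 (0.823), Asprv1 (0.773), Mrgpra2b (0.764), Hdc, the histamine-forming enzyme (0.763) and Il1f9 (0.761). Most of these were low, with mean levels of 0.265 (Ly6g) to 7.70 CPM (Hdc). Pglyrp1 had 0.286 ± 0.21 CPM in young (SD, n = 7) and 2.75 ± 1.23 in old libraries (SD, n = 5), and rose by 3.25 ± 0.616 on the log2 scale (SE; edgeR adjusted p 0.00718). Weak counts make these orders imprecise.

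Of the genes that define neutrophils, Ly6g, Mpo and Elane were near the limit of detection and Cxcr2 was not. Ly6g had 0 counts in 3 of 7 young, 1 of 3 young repopulated, 0 of 5 old and 2 of 8 old repopulated libraries, and at most 48 counts in any library. Its mean was 0.0717 ± 0.0812 CPM in young (SD, n = 7) and 0.558 ± 0.301 in old libraries (SD, n = 5), and the log2 fold change of 2.92 ± 1.13 (SE) did not pass (edgeR adjusted p 0.195). Cxcr2, the chemokine receptor by which neutrophils leave bone marrow, had 0.480 to 2.16 CPM in young and 3.39 to 11.4 in old libraries, with no overlap. It rose by 2.74 ± 0.641 in old (SE; edgeR adjusted p 0.0211) and by 1.95 ± 0.586 in old repopulated libraries (SE; adjusted p 0.0276).

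Csf3r, the receptor for the growth factor G-CSF, which is not limited to neutrophils, was high in all groups. Young libraries averaged 505 ± 45.9 CPM (SD, n = 7) and young repopulated ones 508 ± 32.8 (SD, n = 3). Old libraries averaged 391 ± 92.6 CPM (SD, n = 5) and old repopulated ones 332 ± 155 (SD, n = 8). Csf3r was not called in any of the comparisons with young libraries (edgeR adjusted p 0.512, 0.993 and 0.0546). Mpo and Elane, enzymes of the primary granules of immature neutrophils, had at most 38 and 17 counts in a library. Mpo was at 0 in 4 of 7 young, 1 of 3 young repopulated, 0 of 5 old and 4 of 8 old repopulated libraries, and Elane in 5 of 7, 3 of 3, 4 of 5 and 4 of 8.

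**Figure D5:**
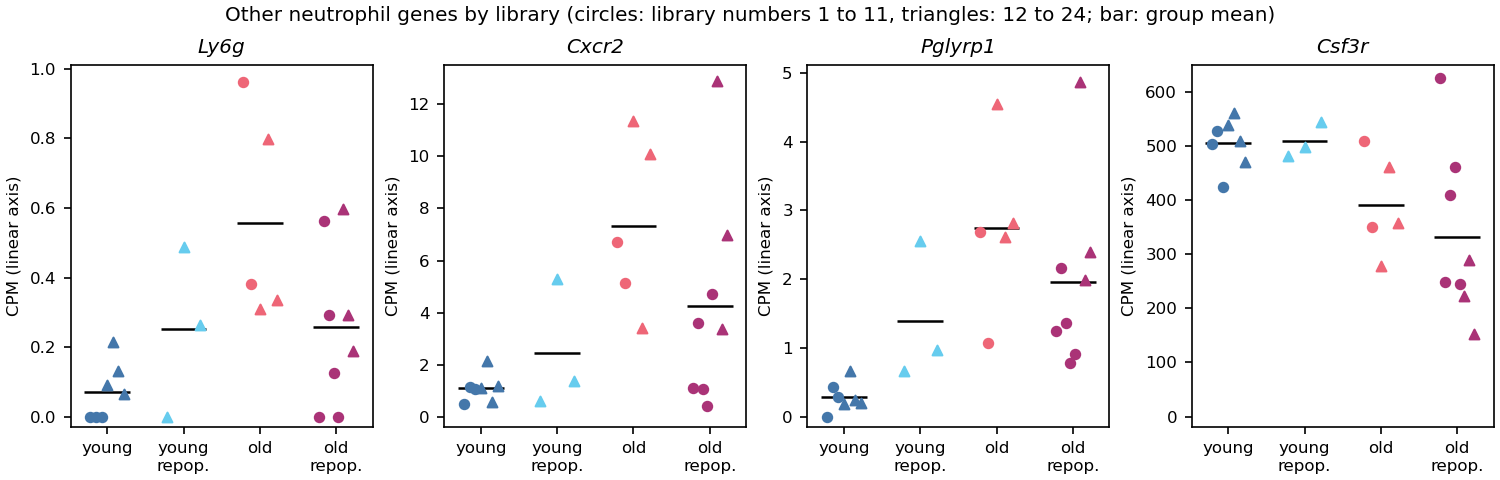
CPM of Ly6g, Cxcr2, Pglyrp1 and Csf3r in each library on linear axes, by group; circles are library numbers 1 to 11, triangles 12 to 24, and bars are group means. Ly6g stays under 1 CPM, Cxcr2 and Pglyrp1 are higher in every old than in every young library, and Csf3r averages 332 CPM or more in all 4 groups.

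Other lists of neutrophil genes were read in the same fit. Of 14 other secondary and tertiary granule genes, 8 rose in old and 11 in old repopulated libraries against young ones, 2 rose in young repopulated libraries and none fell. Their medians were 2.77, 2.76 and 1.51. The most abundant were Lyz2, lysozyme, and Cybb, the catalytic subunit of the phagocyte oxidase, both of which microglia and monocytes also make. Lyz2 averaged 1016 ± 336 CPM over young libraries (SD, n = 7) and 3228 ± 1525 over old ones (SD, n = 5), a rise of 1.67 ± 0.393 (SE; edgeR adjusted p 0.0221), and Cybb rose by 1.59 ± 0.307 (SE; adjusted p 0.00767). Adam8 rose by 2.14 ± 0.554 (SE; adjusted p 0.0368), and Chil3 was at 3.92 ± 1.09 (SE) without passing (adjusted p 0.0532). Lyz2 and Cybb were also the 2 that rose in young repopulated libraries, by 1.92 ± 0.44 and 1.77 ± 0.345 (SE; adjusted p 0.0309 and 0.012).

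Of 7 primary granule genes, 4 passed the filter on low counts, 0 of which rose in old and 3 in old repopulated libraries (Igsf6, Ctsg and Prtn3). Igsf6 encodes a surface receptor of myeloid cells and not a granule protein, so its place in this list does not bear on granules. It had 75.4 to 197 CPM over all libraries, where Mpo, Ctsg and Elane were each under 1 CPM. Prtn3, proteinase 3, averaged 0.0959 ± 0.179 CPM over young libraries (SD, n = 7) and 1.01 ± 0.842 over old repopulated ones (SD, n = 8). Of 14 neutrophil receptor genes, 13 were tested. There were 6 that rose in old and 7 in old repopulated libraries, and none rose in young repopulated ones. Itgam, which encodes CD11b, fell by 0.42 ± 0.0979 on the log2 scale in old repopulated libraries (SE; edgeR adjusted p 0.00705). Itgam has 2 gene entries, and the entry with the higher mean level was used. Of 14 mature neutrophil cytosolic genes, 10 were tested, and 3 rose in old (Anxa1, Padi4 and Dhrs9), 5 in old repopulated (with G0s2 and Hdc) and 1 in young repopulated libraries (Padi4). Padi4, which citrullinates histones, averaged 0.426 ± 0.221 CPM over young libraries (SD, n = 7) and 8.37 ± 5.64 over old ones (SD, n = 5), a rise of 4.28 ± 0.726 (SE; adjusted p 0.00368).

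None of the tested granulopoiesis regulators was called, but Cebpe, which encodes C/EBP-epsilon, was near the limit of detection. Of 10 such genes, Csf3r among them, 8 were tested. In the 3 comparisons with young libraries 0 were called, with medians of -0.01 in old, -0.05 in old repopulated and 0.03 in young repopulated libraries. Of all genes, 2.60%, 9.29% and 0.828% were called higher there. Cebpe had 0.259 ± 0.400 CPM in young (SD, n = 7) and 0.395 ± 0.255 in old libraries (SD, n = 5). Its lowest value was 0.0219 CPM in young and 0 in old repopulated libraries, so its lack of a call does not show a lack of change. Cebpa had 536 ± 111 CPM in young (SD, n = 7) and 508 ± 75.8 in old libraries (SD, n = 5), and Spi1, which encodes PU.1, had 271 ± 20.4 (SD, n = 7) and 274 ± 13.8 (SD, n = 5). Microglia make both. Cebpb was at 0.57 ± 0.196 on the log2 scale in old libraries (SE; edgeR adjusted p 0.13). Of 9 receptors and partners of calprotectin, lipocalin 2 and cathelicidin, 8 were tested. Fpr2, a formyl peptide receptor that also binds cathelicidin, rose in old libraries by 3.52 ± 0.772 (SE; adjusted p 0.015), and Cd36 and Fpr2 rose and Bsg fell in old repopulated ones. Tlr4, a receptor for calprotectin, was at 0.12 ± 0.154 in old (SE; adjusted p 0.777), and Cd14 and Lrp1 were not called either.

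Of 10 further S100 genes, 8 were tested. S100a6, S100a10 and S100a11 rose in old libraries, and with S100a4 in old repopulated ones, with list medians of 1.60 and 1.96. S100a6 rose by 4.39 ± 0.907 in old libraries (SE; edgeR adjusted p 0.0106), with 2.38 ± 2.43 CPM over young libraries (SD, n = 7) and 49.96 ± 51.6 over old ones (SD, n = 5). These genes are made by many cells, monocytes among them.

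Markers of monocytes moved in the same comparisons as the granule genes. Of 10 classical monocyte markers, 7 rose in old and 8 in old repopulated libraries, and none rose in young repopulated ones, with medians of 3.41, 3.49 and 1.42. Their summed level was 299 to 1597 CPM in young, 683 to 1199 in young repopulated, 493 to 4535 in old and 389 to 7440 in old repopulated libraries. Most of the mean sum was Fn1, which was not called. Its mean was 899 CPM in young, 636 in young repopulated, 1207 in old and 2345 in old repopulated libraries. The means of the sum in these groups were 973, 896, 2050 and 3052 CPM. Of the defining markers, Ccr2, the receptor of classical monocytes, had 4.20 to 45.8 CPM in young and 16.9 to 562 in old libraries. The list shares Cd177 and Hp with the other granule genes above. Of 7 nonclassical monocyte markers, 5 rose in old, 5 in old repopulated and 1 (Itgal) in young repopulated libraries. Of 7 border-associated macrophage markers, 1 rose in old (Ms4a7), 4 in old repopulated and 1 in young repopulated libraries (Ms4a7). In the erythroid, astrocyte and cycling cell lists edgeR called no gene in any comparison with young libraries. Cd79b, a B cell receptor component, fell in young repopulated and old repopulated libraries, and the immunoglobulin gene Ighm fell in old repopulated ones. In the list of T and NK cells, the chemokine gene Ccl5 rose in young repopulated libraries (2.52 ± 0.487 on the log2 scale, SE; edgeR adjusted p 0.0117). In the list of eosinophils, basophils and mast cells, Prg2 rose and Ccr3 fell in old repopulated libraries. Of the endothelial list, Flt1 rose in all 3 comparisons and Pltp in old and old repopulated libraries, while Pecam1 fell in young repopulated and old repopulated libraries and Bsg in old repopulated ones. None of the lists for B cells, T and NK cells or eosinophils had a gene called in old libraries. Of 10 microglial markers, 1 fell in old (Fcrls) and 4 in old repopulated libraries (Fcrls, Csf1r, Olfml3 and P2ry12). In both comparisons 0 of the 10 had a positive log2 fold change. The medians were -0.61 and -0.77, against -0.01 and -0.02 over all genes.

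The members' relations with these markers were each tested against 0, and differences among the members were not tested. Over 23 libraries, log2 CPM of Mmp8 had an r of -0.755 and a rho of -0.861 with the summed microglial list (permutation p 7e-05 and 1e-05, adjusted 0.00112 and 0.00016), and r was -0.771 and -0.837 within library numbers 1 to 11 and 12 to 24. With the summed classical monocyte list it had an r of 0.683 and a rho of 0.632 (adjusted p 0.00296 and 0.00636), and r was 0.726 and 0.616 within the runs. That sum weighs genes by their level, so Fn1 counts most in every relation with the monocyte list. For Ngp, Camp and Ltf r lay between -0.16 and -0.04 with the microglial list and between -0.00 and 0.08 with the monocyte list. S100a8, S100a9 and Retnlg had r of -0.615 to -0.581 with the microglial list and 0.486 to 0.565 with the monocyte list. Lcn2 had r of -0.45 with the microglial list (permutation p 0.0302, adjusted 0.0537) and 0.364 with the monocyte list (p 0.0872, adjusted 0.14), and its rho with the microglial list was -0.475 (adjusted p 0.0458). These 16 relations were chosen after the data were seen. Libraries were permuted across all 4 groups, so the relations and their p-values include the differences between groups. Values after subtraction of group means were not computed for them. Without the 2 libraries farthest from the median of the summed list, the r of Mmp8 was -0.76 and 0.634. That of Lcn2 was -0.513 and 0.29, and those of S100a8, S100a9 and Retnlg were -0.652 to -0.588 and 0.357 to 0.471. The part of monocytes or of the microglial share in the results on granule genes was not tested.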

How the data were processed

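Poly(A) RNA of 23 libraries was measured by single reads of 50 nt, per the labels' protocols. FastQC 0.11.5, STAR, RSEM, limma and build GRCm38 are named in the submitters' processing notes; neither the annotation nor the strand setting of the counting is given in the sources used here. The authors deposited, per the file headers, expected counts, which are estimated counts, TPM, which is scaled for gene length and library, and effective lengths in bases for each gene. Expected counts were rounded (all 184 values of the 8 genes were whole within 1e-06). TPM was used only for levels compared between genes.

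In R 4.3.3, edgeR 4.0.16 was run on 18720 genes kept by filterByExpr, with TMM factors (0.947 to 1.03), 1 coefficient per group and all 23 libraries. The quasi-likelihood test was applied to 6 contrasts with Benjamini-Hochberg adjustment over all genes, and the fit was tested on simulated data. Log2 CPM for correlations used a prior count of 2. The members and gene lists were chosen with earlier results of these data known. Named were all members, up to 4 genes of a list by mean CPM, called genes where 5 or fewer were called, the 8 genes most like the members (1 of which is not reported here), and Ly6g, Cxcr2, Csf3r, Mpo and Elane. Coordinates are from GENCODE M21, only where the gene version was the same. Alternatives were RLE and upper-quartile factors, no filter, a mean CPM of at least 5, DESeq2 1.42.0, voom with quality weights (limma 3.58.1), robust dispersion, only the groups compared, library number as a term, fits within each run of numbers, and leaving out each library.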

Additional observations from a re-analysis of the deposited data

Results flagged for a closer look

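In 24 combinations of a granule gene with a group of 5 to 8 libraries, 3 held a library far from the rest. Chance gives about 1 in 20 for normally distributed values. CPM was used here without a log, so that rate may not hold. Old repopulated replicate 6 had 81.52 CPM of S100a8, with the next library at 37.09, and 114.7 CPM of S100a9, with the next at 56.14. Both genes come from the same library and vary together, so they are not separate observations. Young replicate 5 had 8.48 CPM of Ltf, with the next young library at 3.894. Without old repopulated replicate 6 the log2 fold change against young libraries was 1.12 for S100a8 and 1.08 for S100a9, and neither was called by edgeR.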

How the results depend on the processing

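Counts of members called in old against young libraries, 4 of 8, were 2 with robust dispersion and 0 within library numbers 1 to 11, and 1 to 5 when 1 library was left out. In young repopulated against young libraries the count of 1 became 0 with robust dispersion and was 0 to 1 with 1 library left out. In old repopulated against young libraries the count of 5 became 0 within numbers 1 to 11 and was 3 to 8 with 1 library left out. DESeq2 called 6 and 7 members in the first and last of these. The share of all genes called under each alternative is not given here, so these counts are not set against it. The counts of 0 in the other 3 comparisons stayed 0 under all alternatives run.

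Directions turned only among small, uncalled changes. In old repopulated against old libraries, S100a8 was at 0.02775, S100a9 at 0.02403 and Mmp8 at 0.2295 within numbers 12 to 24, Ngp at 0.207 within 1 to 11, Mmp8 at 0.1012 with library number as a term and Retnlg at -0.04989 with voom. With 1 library left out, this comparison ran from -0.692 to 0.1769 for Ngp, -0.4974 to 0.08652 for Camp, -0.3354 to 0.1717 for Lcn2, -0.228 to 0.2542 for Retnlg, -0.4248 to 0.1832 for Mmp8 and -0.6863 to 0.09943 for Ltf. In young repopulated against young libraries S100a8 ran from -0.04662 to 1.037. In old repopulated against young repopulated libraries Ngp ran from -0.5231 to 0.4311, Lcn2 from -0.04648 to 1.036 and Ltf from -0.4768 to 0.5464. The cause was not tested.

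No paired analysis was possible because each library has its own number in the titles and the groups share none. The fit within numbers 1 to 11 has few libraries, so a lack of calls there does not show a lack of difference. Camp was not tested at a mean CPM of at least 5, and low counts limit Camp, Ly6g, Mpo and Elane most. Of the fold changes recomputed under alternatives, 1491 kept direction and side of the threshold, 61 lost a call, 13 gained one and 29 turned.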
